A study of Caenorhabditis elegans with 4 samples.

Results

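The endoplasmic reticulum folding genes of *Caenorhabditis elegans* were followed through 10 genes, taken by name, out of 21895 in the count table. They were the Hsp70 chaperones *hsp-3* (CELE_C15H9.6) and *hsp-4* (CELE_F43E2.8), the protein disulfide isomerases *pdi-1* (CELE_C14B1.1), *pdi-2* (CELE_C07A12.4), *pdi-3* (CELE_H06O01.1) and *pdi-6* (CELE_B0403.4), calreticulin *crt-1* (CELE_Y38A10A.5), calnexin *cnx-1* (CELE_ZK632.6), the oxidase *ero-1* (CELE_Y105E8B.8) and the transcription factor gene *xbp-1* (CELE_R74.3). Entire wild-type worms of the Bristol N2 strain were held in M9 buffer for 24 h with Cyclo(Pro-Tyr), in which proline and tyrosine form a ring, at 0.25 mg/mL (2 libraries), or with its solvent DMSO (2 libraries). The protocol gives 19 °C for this step and the series text 20 °C, and the animals are described only as embryos or L1 larvae. Nothing in the labels says whether the replicates were separate cultures, so the p-values measure only the spread between these libraries, which may be technical.

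Proteins bound for secretion or for membranes enter the endoplasmic reticulum, where BiP-type Hsp70 proteins hold them unfolded, calnexin and calreticulin bind those with sugar chains, and disulfide isomerases, kept oxidised by ERO-1, form their disulfide bonds. When unfolded proteins build up, the sensor IRE-1 removes a short intron from *xbp-1* mRNA, the ends are joined by the ligase RTCB-1, and the XBP-1 protein then made raises transcription of folding genes. PEK-1 and ATF-6 lead the other branches of this unfolded protein response. In the worm, *hsp-4* is the usual reporter of the response, whereas *hsp-3* is expressed more constitutively.

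Library totals ran from 40240674 to 52987317 counts in genes, and the libraries all differed from each other by more than sampling noise. Levels are given as TMM-scaled CPM, counts scaled to library size after a correction for library composition, in which 1 count was worth 0.0188 to 0.0256 CPM. The SD of the log2 difference over all tested genes was 0.42 between the Cyclo(Pro-Tyr) libraries and 0.35 between the DMSO libraries. Between groups it ran from 0.44 to 0.66, the highest values being those of Cyclo(Pro-Tyr) replicate 2. Markers of intestine, epidermis, body wall muscle, pharynx, neurons and germline were detected in every library. Yolk protein genes of the adult intestine, *vit-2*, *vit-3*, *vit-5* and *vit-6*, summed to only 6.21 and 7.45 CPM in Cyclo(Pro-Tyr) and 6.42 and 7.32 CPM in DMSO.

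Worms kept with Cyclo(Pro-Tyr) had lower mean levels of all 10 genes than worms kept with DMSO, although that of *cnx-1* differed by only -0.833% and lay above 0 with upper-quartile scaling. No single gene of the 10 passed the test over all genes. Both Cyclo(Pro-Tyr) libraries lay below both DMSO libraries for 9 of the 10 genes, *cnx-1* being the exception, against 30.8% of the 19439 tested genes. The 10 genes, and the lists below, were chosen with earlier results of these data known. Their shares, set beside those of all genes, are thus description and no test. By edgeR's quasi-likelihood test with Benjamini-Hochberg adjustment over all tested genes, 0 of the 10 were past an adjusted p of 0.05. Over all genes 1.33% were called lower and 0.715% higher. At an unadjusted p under 0.05, 7 of the 10 were lower, against 14.3% of all genes. Of these, 6 had an adjusted p under 0.1, against 7.61% of all genes lower at that looser threshold, which was added after the values were seen. DESeq2's Wald test called 7 of the 10 lower, namely *hsp-3*, *hsp-4*, the 4 *pdi* genes and *crt-1*, against 6.08% of the 16424 genes to which it gave an adjusted p. With upper-quartile scaling, edgeR called *hsp-4* alone of the 10, against 2.45% of all genes lower. The log2 fold change of Cyclo(Pro-Tyr) over DMSO, log2FC below, had a median of -0.47 over the 10 genes, beside -0.0032 over all tested genes. In whole-animal RNA, fewer cells of a type and less RNA per cell cannot be told apart.

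Counted together, the 10 genes took 0.432% and 0.354% of all counts in Cyclo(Pro-Tyr) replicates 1 and 2, and 0.533% and 0.578% in DMSO replicates 1 and 2. Their share was therefore below both DMSO libraries in each treated library, and lowest in Cyclo(Pro-Tyr) replicate 2.

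**Figure D1:**
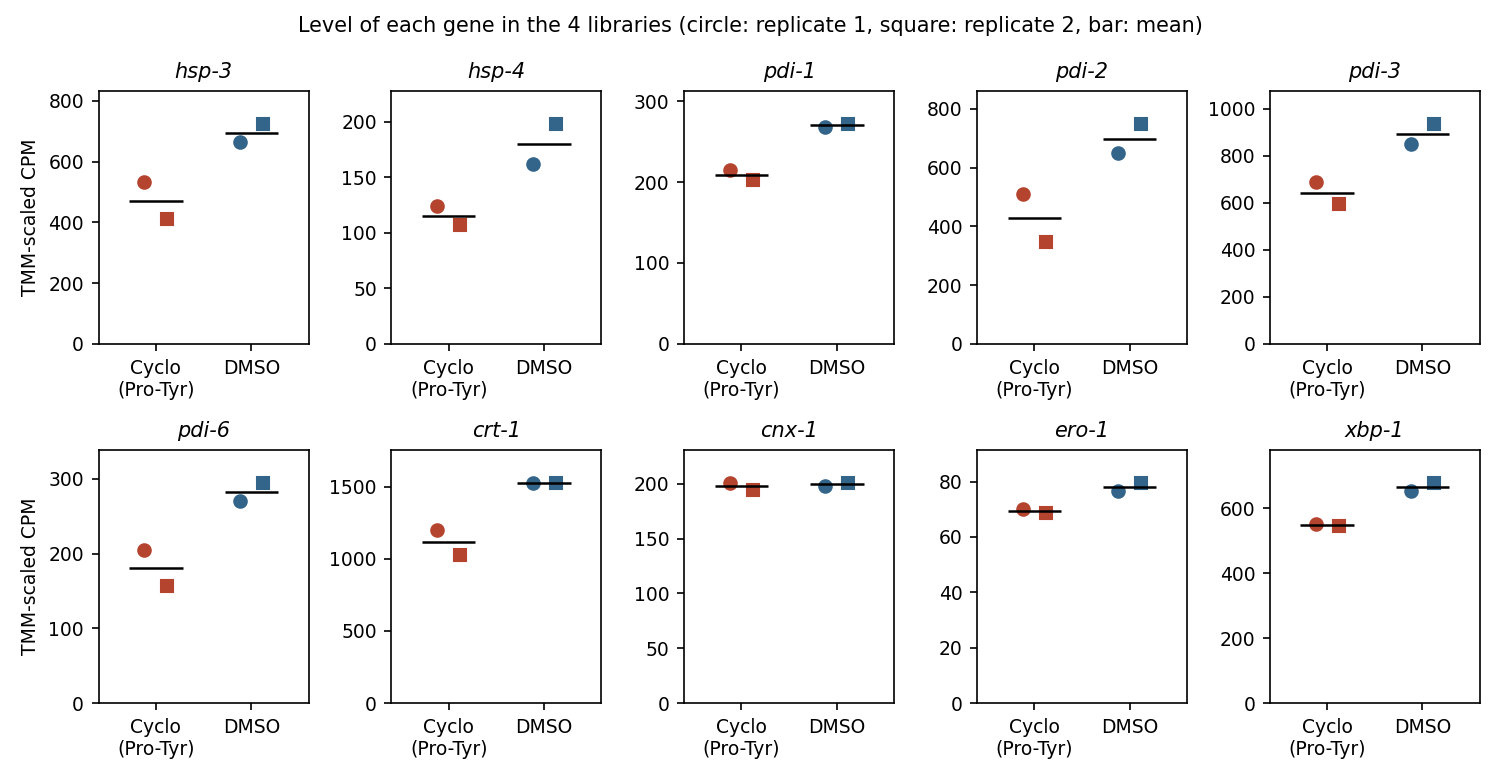
Level of each of the 10 genes in TMM-scaled CPM (vertical axes from 0) in the 2 Cyclo(Pro-Tyr) libraries, red, and the 2 DMSO libraries, blue, with circles for replicate 1, squares for replicate 2 and bars for group means. The Cyclo(Pro-Tyr) points lie below the DMSO points in 9 panels and overlap them for *cnx-1*.

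The BiP homologues were among the genes with the lowest estimates. The *hsp-4* gene had 124 and 107 CPM in Cyclo(Pro-Tyr) replicates 1 and 2, against 162 and 198 CPM in DMSO replicates 1 and 2. The groups did not overlap, although the DMSO libraries themselves differed by 0.30 on the log2 scale. Its log2FC was -0.64 ± 0.14 (SE), with a 95% interval of -0.96 to -0.32, a difference of -35.8%, and its adjusted p of 0.0559 by edgeR was the smallest of the 10. For *hsp-3* the levels were 532 and 409 CPM in Cyclo(Pro-Tyr), against 663 and 725 CPM in DMSO. Cyclo(Pro-Tyr) replicate 2 was the lowest of the 4 libraries by a clear margin. The log2FC was -0.56 ± 0.16 (SE), with an adjusted p of 0.0849 by edgeR.

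The ratio of *hsp-4* to *hsp-3* counts within a library, the inducible over the more constitutive BiP gene, needs no scaling between libraries. It was 0.233 and 0.262 in Cyclo(Pro-Tyr) replicates 1 and 2, against 0.244 and 0.274 in DMSO replicates 1 and 2. The groups overlapped. The difference in the log2 ratio, Cyclo(Pro-Tyr) minus DMSO, was -0.07, smaller than the pooled SD between replicates of 0.12. Both genes code for closely related proteins, and how reads that fit both were counted is not given in the sources used here.

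The protein disulfide isomerases, which form and reshuffle disulfide bonds, were lower by differing amounts. The *pdi-2* gene, whose product is also the β subunit of the prolyl 4-hydroxylase that modifies cuticle collagens, had 511 and 347 CPM in Cyclo(Pro-Tyr), against 648 and 750 CPM in DMSO. It had the lowest estimate of the 10 genes and also, on the log2 scale, the widest gap between treated libraries. Its log2FC was -0.70 ± 0.20 (SE), and its adjusted p by edgeR was 0.0801. In *pdi-6*, an isomerase of the PDIA6 type, the levels were 205 and 156 CPM in Cyclo(Pro-Tyr), against 270 and 295 CPM in DMSO. Both treated libraries lay below both DMSO libraries, replicate 2 again lower than replicate 1. The log2FC of *pdi-6* was -0.64 ± 0.15 (SE), with an adjusted p of 0.0618 by edgeR.

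The most abundant isomerase transcript, *pdi-3*, reached 687 and 597 CPM in Cyclo(Pro-Tyr), against 851 and 937 CPM in DMSO. These groups did not overlap, and the log2FC was -0.48 with an adjusted p of 0.0952 by edgeR. Its relative *pdi-1* had 214 and 203 CPM in Cyclo(Pro-Tyr), against 269 and 272 CPM in DMSO. Replicates of *pdi-1* were close in each group, and its log2FC was -0.38 with an adjusted p of 0.0864 by edgeR.

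The lectin chaperones, calreticulin in the lumen and calnexin in the membrane, which share the task of holding glycoproteins, had unlike values. The *crt-1* transcript had 1201 and 1025 CPM in Cyclo(Pro-Tyr), against 1523 and 1526 CPM in DMSO. Its DMSO libraries were nearly equal and both treated libraries stood below them. The log2FC was -0.45 ± 0.16 (SE), with an adjusted p of 0.126 by edgeR. For *cnx-1* the levels were 201 and 195 CPM in Cyclo(Pro-Tyr), against 198 and 201 CPM in DMSO. They overlapped, with a log2FC of -0.01, a 95% interval of -0.26 to 0.23 and an adjusted p of 0.954 by edgeR. This estimate was above 0, at 0.02, with upper-quartile scaling and 0.01 without Cyclo(Pro-Tyr) replicate 2.

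Within each library the ratio of *crt-1* to *cnx-1* counts was 5.98 and 5.27 in Cyclo(Pro-Tyr) replicates 1 and 2, against 7.69 and 7.60 in DMSO replicates 1 and 2. The treated ratios were both lower, by more than the replicates of either group differed from each other. The 2-sided exact permutation p was 0.333, the smallest that 2 libraries against 2 can give. Counts of *pdi-2* per count of *cnx-1* were 2.55 and 1.78 in Cyclo(Pro-Tyr), against 3.27 and 3.73 in DMSO, again without overlap. These ratios, and that of *hsp-4* to *xbp-1* below, were picked after the values had been seen. Exons of *crt-1* overlap *smut-1* on the opposite strand over 6.57% of their length, and those of *cnx-1* overlap ZK632.14 over 2.29%. Use of strand in the counting is not given in the sources used here, so a small part of both counts is uncertain. The exons of *pdi-2* overlap C07A12.19 on the same strand.

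The oxidase gene *ero-1*, whose product passes oxidising equivalents to the isomerases, had 70.1 and 68.7 CPM in Cyclo(Pro-Tyr), against 76.7 and 79.6 CPM in DMSO. Replicates were close and the groups did not overlap, but the difference was small. Its log2FC was -0.17 with a 95% interval of -0.40 to 0.06 and an adjusted p of 0.301 by edgeR. The *xbp-1* gene had 552 and 546 CPM in Cyclo(Pro-Tyr), against 654 and 679 CPM in DMSO. Its treated libraries were nearly equal and below both DMSO libraries. The log2FC was -0.28 with a 95% interval of -0.57 to 0.01 and an adjusted p of 0.198 by edgeR. Counts per gene do not separate the spliced *xbp-1* mRNA, made during the unfolded protein response, from the unspliced form. Counts of *hsp-4* per count of *xbp-1* were 0.224 and 0.197 in Cyclo(Pro-Tyr) and 0.247 and 0.292 in DMSO, which did not overlap.

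**Figure D2:**
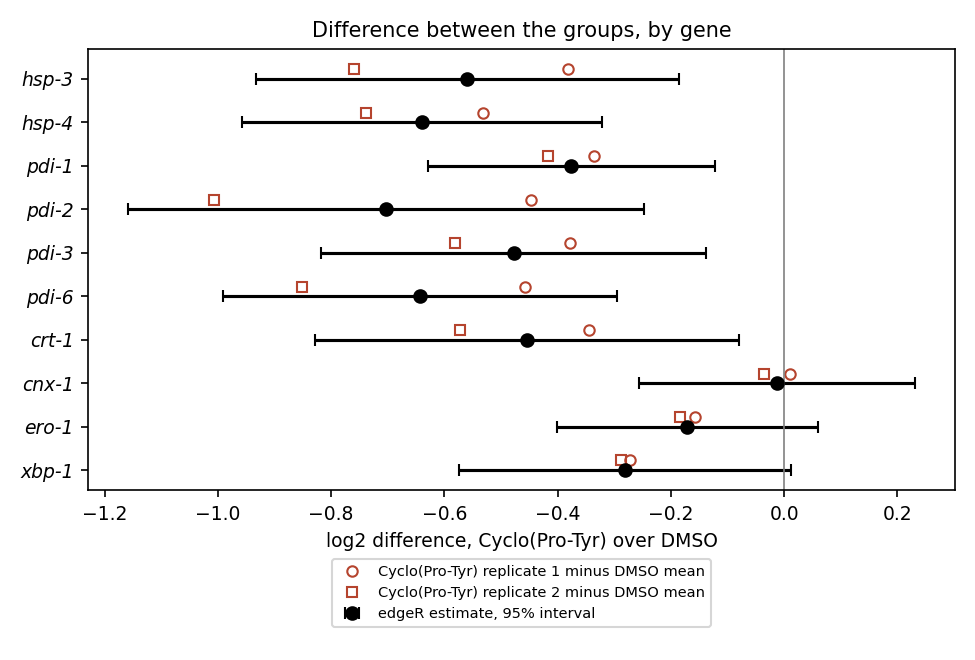
Black points and bars give the edgeR log2FC, Cyclo(Pro-Tyr) over DMSO, with its 95% interval for each of the 10 genes. Open red circles and squares give each treated library minus the mean of the DMSO libraries, and for *pdi-2* these lie at -0.45 for replicate 1 and -1.01 for replicate 2.

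The size of the difference rested partly on Cyclo(Pro-Tyr) replicate 2. It was lower than replicate 1 for all 10 genes. On the log2 scale, its difference from the DMSO mean was -0.76 for *hsp-3* and -0.85 for *pdi-6*, where replicate 1 stood at -0.38 and -0.46. For *pdi-1*, *ero-1* and *xbp-1* replicate 2 minus replicate 1 was only -0.08, -0.03 and -0.02 on that scale. Without Cyclo(Pro-Tyr) replicate 2 the median log2FC of the 10 genes was -0.36, with 9 lower, and edgeR called only *hsp-4* of the 10, at an adjusted p of 0.0458, against 3.38% of all genes called lower in that fit. Without Cyclo(Pro-Tyr) replicate 1 the median was -0.58 and edgeR called *hsp-3*, *hsp-4*, *pdi-2*, *pdi-3* and *pdi-6* lower, against 12.2% of all genes. No gene of the 10 was called without DMSO replicate 1 or without DMSO replicate 2, where the medians were -0.50 and -0.43, but these fits called only 0 (0%) and 4 (0.0201%) of all genes lower. With 1 library left in a group, that library is assumed to vary like the other group.

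**Figure D3:**
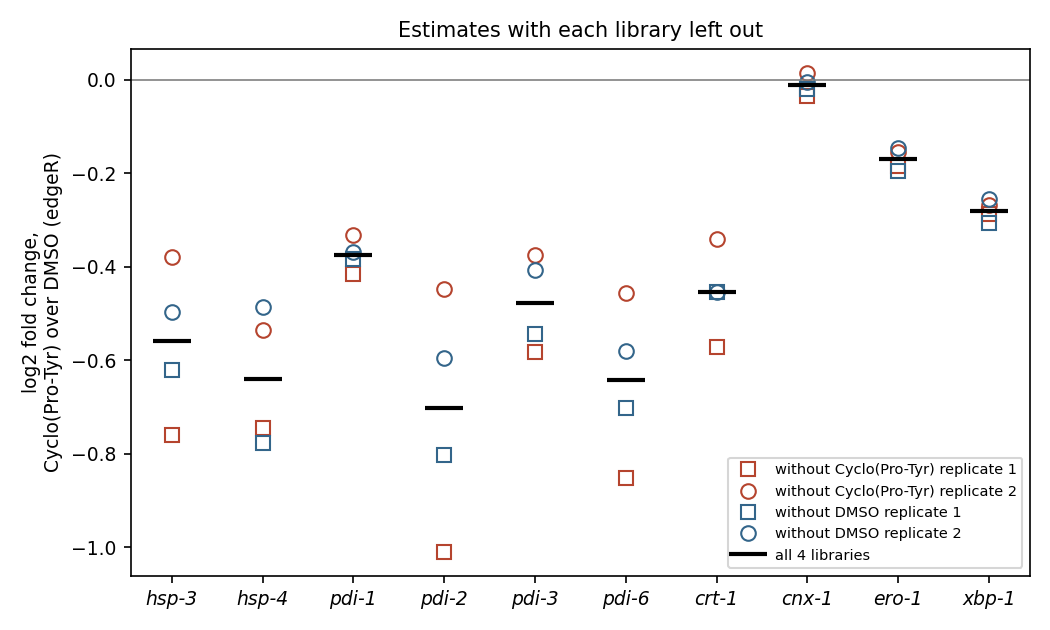
The edgeR log2FC, Cyclo(Pro-Tyr) over DMSO, of each of the 10 genes with all 4 libraries (black bars) and with each library left out in turn (open symbols). Estimates of *pdi-2* spread from -1.01 to -0.45 and those of *cnx-1* stay between -0.03 and 0.01.

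Levels of different genes were set in order only per kilobase of exon, from the Ensembl annotation of assembly WBcel235. In Cyclo(Pro-Tyr), *crt-1* stood first with 857 and 732 CPM per kilobase. Next came *pdi-3* with 402.8 and 349.9 and *xbp-1* with 382 and 377, which overlapped and have no order, and then *pdi-2* with 269 and 183 and *hsp-3* with 199.6 and 154, which also overlapped. The *pdi-1* level was 136 and 128, that of *pdi-6* 125 and 95.1, that of *cnx-1* 93.8 and 90.9, that of *hsp-4* 55.4 and 48.0 and that of *ero-1* 39.4 and 38.7 CPM per kilobase. In DMSO, *crt-1* again led with 1087 and 1089 and *ero-1* again closed the order with 43.1 and 44.8 CPM per kilobase. There *pdi-3* with 499 and 549, *xbp-1* with 452 and 470, *pdi-2* with 341 and 395 and *hsp-3* with 249 and 272 CPM per kilobase did not overlap. The *pdi-1* levels, 170 and 173, and the *pdi-6* levels, 164 and 179 CPM per kilobase, did overlap in DMSO, and below them stood *cnx-1* with 92.5 and 93.7 and *hsp-4* with 72.4 and 88.8 CPM per kilobase. These orders rest on 2 libraries a group and carry no test.

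The 5 listed sensors and regulators of the unfolded protein response had 4 estimates above 0 and 1 below, with a median log2FC of 0.12 and 0 calls by edgeR in either direction. The genes that act on *xbp-1* mRNA, *ire-1* and *rtcb-1*, named here after their values were seen, lay near 0 with opposite signs. For *ire-1* the levels were 81.5 and 77.5 CPM in Cyclo(Pro-Tyr) and 69.1 and 77.6 CPM in DMSO, which overlapped, with a log2FC of 0.12 and an adjusted p of 0.519 by edgeR. For *rtcb-1* they were 17.6 and 17.1 CPM in Cyclo(Pro-Tyr) and 18.5 and 19.5 CPM in DMSO, without overlap, with a log2FC of -0.13 and an adjusted p of 0.511 by edgeR. The kinase gene *pek-1*, which slows translation during the response, had 150.4 and 158 CPM in Cyclo(Pro-Tyr) and 119.9 and 121 CPM in DMSO. Its log2FC was 0.36 with an adjusted p of 0.0853 by edgeR. For *atf-6*, which codes for a membrane-bound transcription factor, the levels were 50.3 and 43.7 CPM in Cyclo(Pro-Tyr) and 38.1 and 38.2 CPM in DMSO, with a log2FC of 0.30 and an adjusted p of 0.138 by edgeR. At an unadjusted p under 0.05, these 2 of the 5 genes were higher and none was lower, against 13% of all genes higher. The treated libraries lay above both DMSO libraries for 3 of the 5 genes and below them for 1, against 29.6% and 30.8% of all genes. The median of the list was 0.20 without DMSO replicate 2.

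Other folding factors of the endoplasmic reticulum were lower in 15 of 18 genes, with a median log2FC of -0.39 and 0 calls by edgeR. An unadjusted p under 0.05 was reached by 10 genes lower and 1 higher, against 14.3% and 13% of all genes. Among them were *fkb-3*, a prolyl isomerase of the FKBP family, with a log2FC of -0.71 and an adjusted p of 0.0604 by edgeR, and *cyn-6*, a cyclophilin, with -0.52 and 0.0674. The gene *enpl-1*, the homologue of GRP94 and named here after its values were seen, had 629 and 521 CPM in Cyclo(Pro-Tyr), against 739 and 861 CPM in DMSO. Its log2FC was -0.48 with an adjusted p of 0.109 by edgeR. Exons of *fkb-3* overlap C05C8.10 on the opposite strand over 10.85% of their length.

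At the entry to the secretory pathway, where the Sec61 channel and the TRAP complex admit new proteins, 6 of 7 listed genes were matched by name. The gene *emo-1*, for the γ subunit of the channel, was not matched, so its level is not given. All 6 matched genes were lower with no overlap between groups, against 30.8% of all genes. Their median log2FC was -0.47, and edgeR called 2 of the 6, both lower, against 1.33% of all genes. The *sec-61.B* gene, for the β subunit of the channel, fell to 19.9 and 21.1 CPM in Cyclo(Pro-Tyr), against 34.2 and 30.5 CPM in DMSO, with a log2FC of -0.66 and an adjusted p of 0.0457 by edgeR. Its exons overlap 21ur-15588 on the opposite strand over 4.83% of their length. The TRAP subunit gene *trap-3* fell to 60.96 and 57.3 CPM in Cyclo(Pro-Tyr), against 89.7 and 82.96 CPM in DMSO, with a log2FC of -0.55 and an adjusted p of 0.0487 by edgeR. Without DMSO replicate 1 their edgeR adjusted p values were 0.222 and 0.227, and without DMSO replicate 2 both were 0.339, so neither call held there. With all 4 libraries, the adjusted p of *sec-61.B* ran from 0.0019 (DESeq2's Wald test) to 0.0729 (edgeR, at least 5 CPM in 2 libraries). That of *trap-3* ran from 0.0032 to 0.0891 by edgeR, with the crossed and the plain replicate block described below.

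The oligosaccharyltransferase, which attaches sugar chains to incoming proteins, had all 5 listed genes lower with a median log2FC of -0.33 and 0 calls by edgeR. At an unadjusted p under 0.05, 4 of the 5 were lower, against 14.3% of all genes. The subunit genes *dad-1* and *ostb-1* had log2FC values of -0.40 and -0.33 and adjusted p values of 0.0676 and 0.111 by edgeR. By contrast, the genes of endoplasmic reticulum-associated degradation, which send misfolded proteins to the proteasome, were spread around 0. Of these, 9 of 17 were lower, with a median log2FC of -0.0006 and 0 calls by edgeR. An unadjusted p under 0.05 was reached by 1 gene lower and 1 higher, against 14.3% and 13% of all genes. The Derlin gene *cup-2* had a log2FC of -0.41 with an adjusted p of 0.0701 by edgeR. The ubiquitin ligase gene *hrdl-1* had one of 0.43 with an adjusted p of 0.0653 by edgeR. Exons of *cup-2* overlap F25D7.10 on the opposite strand over 7.40% of their length. Whether these lists differ from the 10 genes was not tested.

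**Figure D4:**
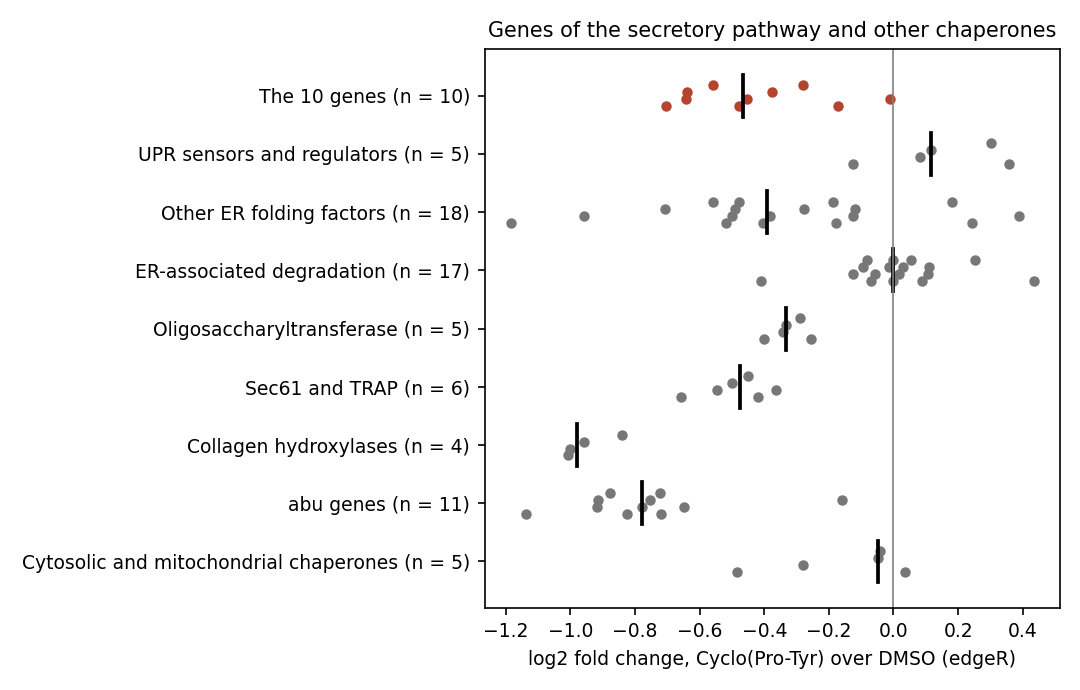
Each point is the edgeR log2FC, Cyclo(Pro-Tyr) over DMSO, of a tested gene, with the list median as a black bar and the 10 genes of the report in red at the top. Medians run from -0.98 for the collagen hydroxylases to 0.12 for the sensors and regulators of the unfolded protein response (UPR).

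Collagen hydroxylases, the enzymes that work on cuticle and basement membrane collagens in the endoplasmic reticulum, had the lowest median of the lists compared, -0.98, with 4 of 4 genes lower and 0 calls by edgeR. Each of the 4 had an unadjusted p under 0.05, where 14.3% of all genes were lower at that threshold. The *dpy-18* gene, for a catalytic subunit that pairs with PDI-2, had 78.9 and 40.4 CPM in Cyclo(Pro-Tyr), against 107 and 107 CPM in DMSO, with a log2FC of -0.84 and an adjusted p of 0.0979 by edgeR. The other catalytic subunit gene, *phy-2*, named after its values were seen, had 138 and 46.1 CPM in Cyclo(Pro-Tyr), against 197 and 172 CPM in DMSO. Cyclo(Pro-Tyr) replicate 2 was thus far below replicate 1 in both. Replicate 2 was also the lower for all 10 genes of the report, *pdi-2* among them. The low-abundance hydroxylase gene *phy-3* stayed under 1 CPM in every library, with a log2FC of -0.96 and an adjusted p of 0.140 by edgeR. The median of the list was -1.70 without Cyclo(Pro-Tyr) replicate 1, and -0.43 when replicate 2 of that group was left out.

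The summed level of the epidermal markers, from the tissue that makes the cuticle, was also lowest in that library. It was 166 and 112 CPM in Cyclo(Pro-Tyr) replicates 1 and 2, against 184 and 202 CPM in DMSO replicates 1 and 2, with 3 of 4 markers lower, none called by edgeR and none at 0. The cuticle collagen gene *dpy-7* had 52.3 and 19.4 CPM in Cyclo(Pro-Tyr), against 83.3 and 103 CPM in DMSO, and without it the sums were 114 and 92.6 CPM in Cyclo(Pro-Tyr) and 101 and 99.1 CPM in DMSO, which overlapped. The epidermal transcription factor genes *elt-3* and *lin-26* had log2FC values of 0.14 and -0.02. Summed markers of pharynx, body wall muscle and neurons were higher in Cyclo(Pro-Tyr). The 3 pharynx markers, with log2FC values of 0.16 to 0.50, summed to 3712 and 3976 CPM in Cyclo(Pro-Tyr), against 2665 and 3297 CPM in DMSO. The 4 body wall muscle markers, 1 of them lower, summed to 9620 and 9408 CPM in Cyclo(Pro-Tyr), against 7148 and 8632 CPM in DMSO. The 4 neuronal markers, 2 of them with estimates just below 0, summed to 416 and 440 CPM in Cyclo(Pro-Tyr), against 401 and 388 CPM in DMSO. None of these sums overlapped between groups, whereas those of intestine and germline markers did. Of single genes, 29.6% of all tested were higher without overlap. The intestine sum holds markers of opposite sign, *ges-1* with a log2FC of 0.67 and *act-5* with -0.53. The other intestine markers, *elt-2* and *ifb-2*, had 0.05 and 0.12. The part of these tissue markers in the values of the 10 genes, the hydroxylases and the other lists was not tested. Across all 27 tissue markers 12 were lower, the median log2FC was 0.06 and edgeR called none.

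The *abu* genes, first described in worms as activated when the unfolded protein response is blocked, numbered 15, of which 11 passed the filter on low counts. All 11 tested were lower, with a median log2FC of -0.78 and 0 calls by edgeR. Of these, 9 had an unadjusted p under 0.05, against 14.3% of all genes lower at that threshold. The *abu-10* gene had 17.4 and 13.0 CPM in Cyclo(Pro-Tyr), against 24.5 and 27.8 CPM in DMSO, with an adjusted p of 0.0537 by edgeR, and *abu-11* had a log2FC of -0.88 with 0.0592. Some *abu* genes are closely related copies, so the division of reads among them is uncertain. Their median was -1.24 without Cyclo(Pro-Tyr) replicate 1, and -0.52 when replicate 2 of that group was left out.

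Chaperones of the cytosol and mitochondria had a median log2FC of -0.05, with 4 of 5 genes lower and 0 calls by edgeR. An unadjusted p under 0.05 was reached by 1 gene, which was lower, against 14.3% of all genes. The constitutive cytosolic Hsp70 gene *hsp-1*, named here after its values were seen, had 1314 and 1412 CPM in Cyclo(Pro-Tyr), against 1345 and 1476 CPM in DMSO. Its groups overlapped, with a log2FC of -0.05, where the endoplasmic reticulum counterparts *hsp-3* and *hsp-4* stood at -0.56 and -0.64. The mitochondrial chaperonin gene *hsp-60* had a log2FC of -0.48 with an adjusted p of 0.0727 by edgeR, and *hsp-110* had -0.28 with 0.222. The difference between these values and those of *hsp-3* and *hsp-4* was not tested.

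Among other genes of at least 10 CPM, the 5 whose centred log2 levels over the 4 libraries lay nearest to the mean profile of the 10 genes were *suro-1*, E02D9.1, *srh-158*, *pal-1* and ZK909.3. Their Euclidean distances to it ran from 0.0273 to 0.0350, where the 10 genes themselves lay at 0.0497 for *pdi-3* to 0.445 for *cnx-1*. The mean profile was -0.11 and -0.33 in Cyclo(Pro-Tyr) replicates 1 and 2, and 0.17 and 0.27 in DMSO replicates 1 and 2. With only 4 libraries many genes lie close to any such profile.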

How the data were processed

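The deposited table holds raw counts, whole numbers of reads per gene, deposited by the authors without normalisation in 1 column for each library. Columns were matched to libraries by treatment and replicate number from the titles, since a treatment label of Cyclo(Pro-Tyr) replicate 2 also names replicate 1. Bowtie2 and SAMtools are named in the submitters' processing notes. The build, annotation, counter and use of strand were not given in the sources used here, so coordinates are left out. Gene symbols came from the RefSeq table of assembly WBcel235, which matched 21890 of 21895 tags. Exon lengths and overlaps came from the Ensembl annotation of the same assembly. Sequences were not used here.

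All genes were fitted with edgeR 4.0.16 (R 4.3.3), using the quasi-likelihood test, TMM scaling, filterByExpr at default settings (19439 genes kept, all 10 members among them), treatment as the only term and a threshold of 0.05 after Benjamini-Hochberg adjustment. Standard errors are the log2 fold change divided by the root of F. The fit was tested on simulated data, with changes larger than the estimates of the 10 genes. Recovery of changes as small as theirs was not tested. Log2 levels per library carry a prior count of 2. Alternatives were other scalings and filters, DESeq2 1.42.0, limma-voom (limma 3.58.1), robust and legacy edgeR fits, a replicate block and leaving out each library. The members, lists and rules were chosen with earlier results of these data known. All 10 members were described, and in each list the genes past the threshold or else the 2 with the smallest p. Same-numbered libraries did not deviate together (r = -0.20 across genes, which are not independent replicates). Figures were drawn with matplotlib 3.10.9.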

Additional observations from a re-analysis of the deposited data

How the results depend on the processing

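For 9 of the 10 genes, all but *cnx-1*, both treated libraries lay below both DMSO libraries, so leaving out 1 library can hardly turn the sign. The log2 fold changes of these 9 genes were below 0 in all 16 fits. That of *cnx-1* was 0.0174 with upper-quartile scaling and ran from -0.0344 to 0.0138 over the fits without each library, the highest without Cyclo(Pro-Tyr) replicate 2. A crossed replicate block was added after seeing the data, because same-numbered libraries deviated weakly in opposite directions (r = -0.20 across genes). Its pairing was thus chosen from these same data, and its calls are no independent support. The count of the 10 genes called lower, 0 in the report, was 1 with upper-quartile scaling (2.45% of all genes), 7 with DESeq2's Wald test (6.08%) and 8 with the crossed replicate block (2410 of 19439 genes). It ran from 0 to 5 over the fits without each library, and no fit called any of the 10 higher. Their median ran from -0.58 to -0.36 in those fits. Over all genes the 398 calls became 841 with upper-quartile scaling, 215 with total counts, 0 with at least 5 CPM in 2 libraries (3736 at an unadjusted p under 0.05), 1789 with DESeq2, 221 with the replicate block and 4581 with the crossed replicate block. They ran from 0 to 4296 without each library. The replicate block, where numbers do not pair the libraries by design, left 0 of the 10 genes called. The median of the collagen hydroxylases ran from -1.70 to -0.43 without each library. The calls of *sec-61.B* and *trap-3* were also lost with the CPM filter, at edgeR adjusted p values of 0.0729 and 0.0773, and with the replicate block, at 0.0689 and 0.0891. That of *trap-3* was lost with total counts, at 0.0545, and the legacy fit, at 0.0536. The difference in the log2 ratio of *hsp-4* to *hsp-3* ran from -0.15 to 0.02 without each library. For every shift listed, the cause was not tested.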
